A study of Rattus norvegicus with 30 samples.

Results

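Exposure to predator scent was compared with no exposure across hippocampal transcripts of adult Sprague Dawley rats. The exposed rats were 10 with an extreme behavioural response (5 F and 5 R rats) and 9 with a minimal one (5 F and 4 R). They were set against 10 controls (5 F and 5 R) that had gone through the behavioural tests without the scent. F and R are the letters in the rat identifiers, and the labels call the F rats female and the R rats male, so cohort and sex cannot be told apart. All arrays with values were used, 29 of 30, and the missing array was R minimal 5. Each array held the total RNA of the dissected hippocampus of 1 rat, so p-values rest on the spread between animals. Exposure is the mean of the extreme and minimal groups, each weighted equally, minus the controls, fitted in limma with cohort as a block. The labels do not give the time between exposure and dissection, and the split into extreme and minimal responders was made on behaviour by the study.

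Predator scent is an innate threat for rats. It activates the hypothalamic-pituitary-adrenal axis, and the glucocorticoids released act on the hippocampus through the mineralocorticoid and glucocorticoid receptors, which switch on genes such as *Fkbp5*, *Sgk1*, *Ddit4* and *Per1*. Neuronal activity separately drives immediate early genes such as *Arc* and *Fos*, and hippocampal cells make peptides that modulate the response, among them dynorphin from dentate granule cells and somatostatin and neuropeptide Y from interneurons.

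Values are log2 intensities, so 1 unit is a doubling of signal, and every fold change below is a difference on that scale. A probe was tested when it exceeded background on at least 5 arrays, which left 11888 of 22523. Markers of granule cells (*Prox1*, *C1ql2*), pyramidal cells (*Neurod6*) and interneurons (*Gad1*) were above background on 28 or 29 of the 29 arrays. *Eif2s3* and *Pbdc1*, both on the X chromosome, were lower in R than in F rats (−0.39 with adjusted p = 8.21e-06, and −0.36 with 0.00126). They were among 23 probes called between the cohorts, which also include genes on other chromosomes. Examples are *Ptpro* on chromosome 4 (−0.54, 0.000356) and *Tnnc2* on chromosome 3 (0.74, 0.00768).

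The arrays divided in ways that the labels do not name. A group of 8 probes, among them those of the ribosomal protein genes *Rpl37l1*, *Rpl7* and *Rpl23*, divided the rats, 12 in what is called set A here and 17 in set B, and 2121 probes (17.8%) differed between the sets. Set A held 0 of the 10 extreme, 6 of the 9 minimal and 6 of the 10 control rats. The exposure contrast is therefore partly confounded with the set, and the extreme contrasts more so. Values with the set as a block are given beside the extreme contrasts and for some of the exposure values. A second group of 27 probes was high in 4 rats, F extreme 5, F minimal 3, R minimal 2 and F control 2. They include the choroid plexus genes *Folr1* and *Kl*. R extreme 4 had the lowest median correlation with the other arrays, 0.964, where the highest was 0.988. In whole tissue, fewer cells of a type and less RNA per cell cannot be told apart.

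No single transcript passed for exposure over both cohorts. Of 11888 probes, 0 (percentage called 0) had an adjusted p under 0.05 in limma, and 974 (8.19%) had an unadjusted p under 0.05, of which 422 (3.55%) were higher and 552 (4.64%) lower in exposed rats. The smallest adjusted p was 0.0571, for a probe without a gene symbol that was higher by 0.35. The leading named genes were *Pacsin1* and *Kcnj11* (adjusted p = 0.0703 for each), and then *Fkbp8*, *Clptm1*, *Adgrb2*, *Tob2*, *Ovca2*, *Cxcl12* and *Slc41a1* (0.0786 for each). The count of 0 depended on single rats. It was 7 without R extreme 5, it was 2 without any of R extreme 4, F extreme 2, F minimal 3, R control 1 or R control 2, and it was 1 without R minimal 3. Adding the set to the model as a block let 5 probes pass (0.0421%), and within set B alone 0 passed. The genes described below were picked for their small p in this contrast, so their values are a description, and none is said to have changed unless an adjusted p under 0.05 is given with it. An adjusted p from a fit with a rat left out does not count for this.

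**Figure D1:**
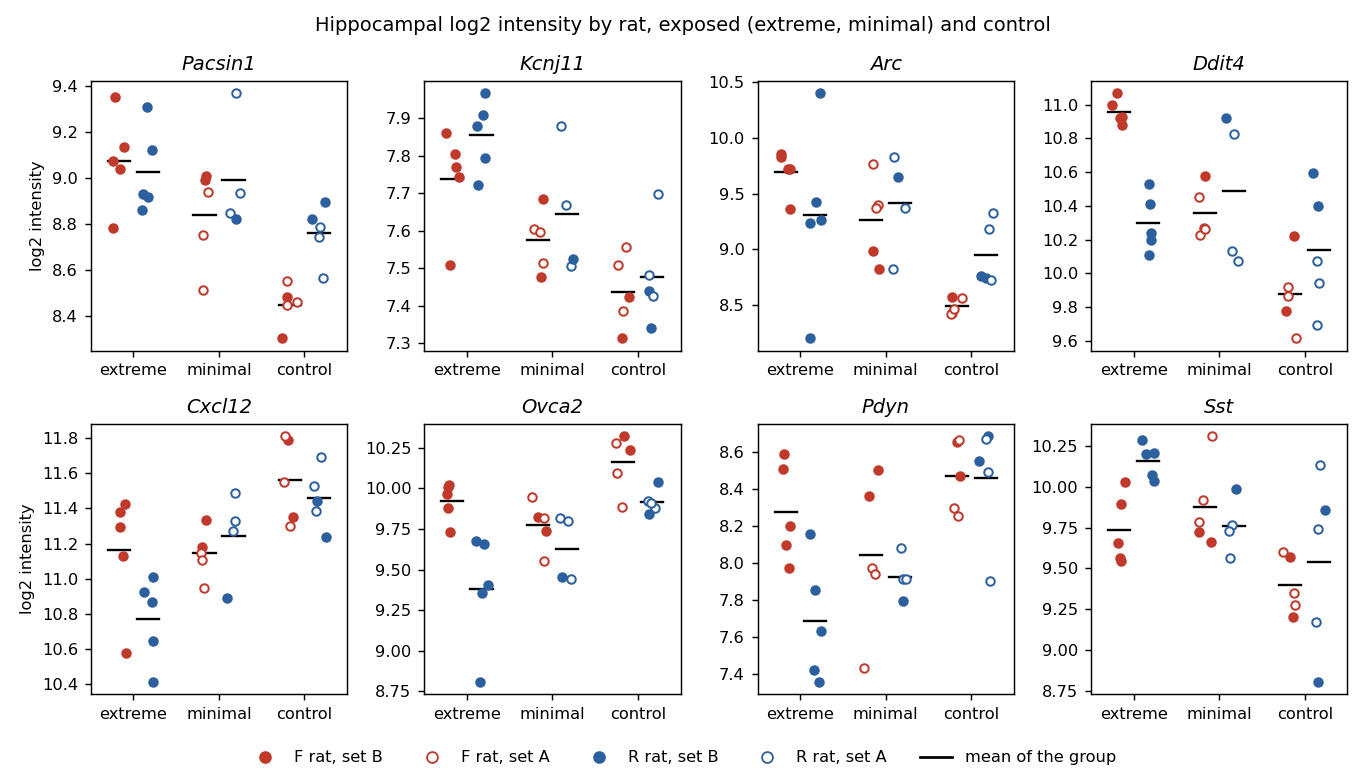
Log2 intensity of 8 genes in each rat, with extreme, minimal and control rats from left to right, F rats in red, R rats in blue, filled points for set B, open points for set A and a bar at the mean of each group. *Pacsin1*, *Kcnj11*, *Arc*, *Ddit4* and *Sst* sit higher and *Cxcl12*, *Ovca2* and *Pdyn* lower in exposed rats, and the groups overlap for each of the 8 genes.

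Genes induced by glucocorticoids had higher means in exposed than in control rats for most members, and *Ddit4* led them in F rats. *Ddit4*, an inhibitor of mTORC1 signalling, spanned 10.08 to 11.07 with a median of 10.45 in the 19 exposed rats, against 9.61 to 10.59 with a median of 9.93 in the 10 controls. All 10 exposed F rats lay above every F control, while 2 of the 9 exposed R rats lay above every R control. The exposure difference was 0.51 ± 0.12 (SE, adjusted p = 0.126), made up of 0.78 ± 0.13 in F rats and 0.25 ± 0.14 in R rats. In F rats alone *Ddit4* rose (adjusted p = 0.0306) and was the 1 probe of 11888 (0.00841%) to pass there. That F call did not hold within set B, which keeps fewer F rats and where 0 probes passed. Adding the set to the model instead let 26 probes (0.219%) pass in F rats. A fit that blocked on replicate number called 0 in F rats. Those numbers follow the order of listing and do not pair the rats, so that fit cannot weigh on the call. The difference between the cohorts, R minus F, was −0.53 (95% interval −0.91 to −0.14, adjusted p = 0.376).

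The promoter windows of 3 genes with different roles are printed here, *Ddit4* as the gene that passed in F rats, *Cxcl12* as a secreted factor with a lower mean in both cohorts, and *Sst* as an interneuron peptide with a higher one. They come from RefSeq on the GRCr8 build and span the annotated start and mostly precede it, 5′ to 3′ on the gene's strand. They lie at chr20:28436988-28437287 on the minus strand for *Ddit4*, chr4:152060531-152060830 on the plus strand for *Cxcl12* and chr11:90461296-90461595 on the plus strand for *Sst*. Capitals mark the GC box GGGCGG, read on both strands, in *Ddit4* and *Cxcl12*, and the cyclic AMP response element TGACGTCA in *Sst*.
Ddit4: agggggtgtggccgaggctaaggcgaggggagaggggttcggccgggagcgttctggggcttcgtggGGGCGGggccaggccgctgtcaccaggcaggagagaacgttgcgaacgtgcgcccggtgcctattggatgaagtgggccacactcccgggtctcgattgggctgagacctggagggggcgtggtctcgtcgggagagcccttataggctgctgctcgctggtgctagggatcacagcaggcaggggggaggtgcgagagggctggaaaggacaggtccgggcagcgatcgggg
Cxcl12: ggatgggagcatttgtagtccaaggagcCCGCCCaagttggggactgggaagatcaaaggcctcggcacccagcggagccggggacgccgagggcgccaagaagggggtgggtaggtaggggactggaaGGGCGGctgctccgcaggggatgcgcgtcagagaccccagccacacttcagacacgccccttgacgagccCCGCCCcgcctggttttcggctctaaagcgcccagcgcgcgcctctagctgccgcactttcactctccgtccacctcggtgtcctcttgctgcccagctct
Sst: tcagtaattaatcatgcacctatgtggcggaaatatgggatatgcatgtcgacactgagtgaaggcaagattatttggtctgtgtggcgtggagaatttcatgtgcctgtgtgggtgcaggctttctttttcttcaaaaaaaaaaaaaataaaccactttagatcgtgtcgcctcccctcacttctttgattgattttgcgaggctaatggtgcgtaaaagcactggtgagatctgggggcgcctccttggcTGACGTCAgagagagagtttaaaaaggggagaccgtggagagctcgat

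The *Ddit4* window holds 1 GC box, the *Cxcl12* window 3 and the *Sst* window 1 cyclic AMP response element. Windows were found for 24 of the 30 genes with the smallest p for exposure, which do not include *Sst*. Of their 25 windows, 12 (48%) hold a GC box, against 33.1% of all 33469 windows. The E-box CACGTG is in 1 (4%), that of *Rev1*, against 6.42% of all. The cyclic AMP response element is in 0 of the 25, against 1.83% of all, and the glucocorticoid response element GNACANNNTGTNC is also in 0, against 0.439%. Among 25 windows of 20 glucocorticoid-induced genes the glucocorticoid response element is in 0 and the GC box in 16 (64%). All windows cover 27457 genes with no filter on expression here, while the named and listed genes were above background. The shares therefore compare unlike groups. These letters describe the windows and say nothing of binding.

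*Tob2*, an antiproliferative protein, spanned 9.08 to 10.07 with a median of 9.50 in exposed rats and 8.77 to 9.52 with a median of 9.16 in controls. The groups overlapped, with 9 of 19 exposed rats above the highest control. Its exposure difference was 0.41 ± 0.09 (adjusted p = 0.0786), with 0.54 in F and 0.29 in R rats. *Per1*, a clock gene that glucocorticoids also induce, differed by 0.29 ± 0.08 (0.235), and *Sgk1*, a kinase that regulates ion transport, by 0.44 ± 0.15 (0.368). For *Sgk1* the exposed rats spanned 11.51 to 13.08 with a median of 11.99, against 11.11 to 12.43 with a median of 11.56 in controls. 5 exposed rats lay above every control, all of them F rats. *Dusp1*, a phosphatase that switches off MAP kinases, differed by 0.54 with an adjusted p of 0.492.

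The gene lists were chosen with earlier results of these data known, so list counts here and below are a description. Of 32 genes in the glucocorticoid-induced list, 22 were above background. Of these, 18 had a higher and 4 a lower mean in exposed rats, with a median difference of 0.082, where 5597 of all 11888 probes were higher and the median over all was −0.0054. Unadjusted p was under 0.05 for 9 of the 22, all higher, against 3.55% of all probes higher and 4.64% lower. The median was 0.19 in F rats and 0.062 in R rats, with 12 members higher and 2 lower in both cohorts. *Fkbp5*, the chaperone that restrains the glucocorticoid receptor, was not among the higher ones (−0.10 ± 0.08, adjusted p = 0.803). *Nr3c2*, the mineralocorticoid receptor, differed by −0.08 ± 0.09 (0.869). The probe of *Nr3c1*, the glucocorticoid receptor, was above the background limit on 9 of 29 arrays, so its difference is not read here. Among 11 corticosteroid receptors and cofactors, 5 were higher and 6 lower (median −0.0083).

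Immediate early genes were likewise higher on average in exposed rats, and *Arc* had the largest difference of the 30 leading genes. *Arc*, which regulates AMPA receptor traffic at synapses, spanned 8.20 to 10.40 with a median of 9.40 in exposed rats, against 8.42 to 9.32 with a median of 8.65 in controls. All 10 exposed F rats lay above every F control. Of the 9 exposed R rats, 5 lay above every R control, and R extreme 5 lay below all of them. The exposure difference was 0.70 ± 0.16 (adjusted p = 0.109), with 0.99 ± 0.21 in F and 0.42 ± 0.22 in R rats. Without R extreme 5 it was 0.78 (adjusted p = 0.0109), and over all single rats left out it ranged between 0.65 and 0.78. R extreme 4, the array with the lowest correlation, was the highest rat at 10.40. In R rats alone the difference ranged between 0.28 and 0.55 with single rats left out.

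*Klf2*, a zinc finger transcription factor, spanned 7.35 to 8.24 with a median of 7.65 in exposed rats and 7.14 to 7.53 with a median of 7.38 in controls. 12 of the 19 exposed rats lay above every control. It differed by 0.30 ± 0.07 (adjusted p = 0.127), with 0.45 in F and 0.15 in R rats. *Fos*, a subunit of the AP-1 transcription factor, differed by 0.34 ± 0.13 (0.441), and *Egr4* and *Dusp5*, which are also induced by activity, by 0.29 (0.344) and 0.17 (0.243). *Jun*, another AP-1 subunit, had the opposite sign at −0.20 ± 0.07 (0.386). *Bdnf*, a neurotrophin induced by activity, differed by −0.049 ± 0.07 (0.906).

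Of 25 immediate early genes above background, 20 were higher and 5 lower in exposed rats, with a median difference of 0.11. Unadjusted p was under 0.05 for 9 higher and 1 lower of the 25, against 3.55% higher and 4.64% lower of all probes. The median was 0.21 in F and 0.084 in R rats, and 13 were higher and 1 lower in both cohorts. Without the 4 rats high in choroid plexus probes the median was 0.071 for this list and 0.10 for the glucocorticoid-induced list.

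Peptides of granule cells and interneurons differed in opposite directions. *Pdyn*, the precursor of dynorphin, spanned 7.36 to 8.59 with a median of 7.97 in exposed rats, against 7.91 to 8.68 with a median of 8.52 in controls. The groups overlapped, with 6 of 19 exposed rats below the lowest control, R control 3, which itself lay apart from the other R controls. The difference was −0.49 ± 0.11 (adjusted p = 0.125), with −0.31 ± 0.15 in F and −0.65 ± 0.15 in R rats, and the extreme and minimal rats were alike in mean (−0.48 and −0.49 against control). A block for the set gave −0.55 (adjusted p = 0.0557).

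*C1ql2*, a synaptic organiser released by granule cells, spanned 7.73 to 9.77 with a median of 9.14 in exposed rats, against 9.48 to 9.79 with a median of 9.62 in controls. 16 of the 19 exposed rats lay below every control, and R extreme 4 was the lowest. The difference was −0.48 ± 0.14 (adjusted p = 0.243), with −0.40 in F and −0.53 in R rats. The rest of the granule cell list was nearer 0, such as *Prox1* (−0.046) and *Calb1* (−0.13). The probes of *Stxbp6* and *Trpc6* were above background on only 6 and 18 arrays, and *Prox1* spanned 7.02 to 7.42, close to background. Such probes have little room to fall, so their values are not read as an absence of change. Only *C1ql2*, *Pdyn* and *Calb1* of this list were above background on every array. The list median over those is the *C1ql2* value itself, so it adds nothing about the list. In all, 5 of 6 granule cell markers were lower (median −0.10), and the median without the 4 choroid plexus rats was −0.13.

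*Sst*, somatostatin, spanned 9.55 to 10.31 with a median of 9.89 in exposed rats and 8.81 to 10.13 with a median of 9.46 in controls. The groups overlapped widely, and 4 of 19 exposed rats lay above the highest control. Its difference was 0.42 ± 0.11 (adjusted p = 0.171), with 0.41 ± 0.15 in F and 0.42 ± 0.15 in R rats. The R value was 0.24 without R control 1. *Npy*, neuropeptide Y, differed by 0.37 ± 0.16 (0.526), and by 0.16 with the set as a block. *Gad2*, which makes GABA, differed by 0.42 ± 0.14 (0.382), and by 0.26 with the block. *Crh*, corticotropin-releasing hormone, differed by 0.12 ± 0.07 (0.653), from a probe above background on 15 of 29 arrays.

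Of 14 interneuron markers above background, 13 were higher in exposed rats (median 0.14, with 0.12 in F and 0.21 in R rats), and 9 of the 14 were higher in both cohorts. Choroid plexus markers moved with them: all 12 were higher, with a median of 0.20. The mean log2 level of those 12 spanned 7.77 to 10.77 in extreme, 7.83 to 11.33 in minimal and 7.69 to 10.97 in control rats. Within set B all 12 were lower (median −0.38), while 13 of 14 interneuron markers were higher there (median 0.22). Without the 4 rats of high choroid plexus level the median was 0.098 for interneuron markers, 12 of 14 higher, and 0.050 for choroid plexus markers. The part of choroid plexus tissue in these differences was not tested beyond that.

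*Pacsin1* and *Kcnj11* had the smallest p of the named genes. *Pacsin1*, which bends membranes in synaptic vesicle endocytosis, spanned 8.52 to 9.37 with a median of 8.94 in exposed rats, against 8.30 to 8.90 with a median of 8.56 in controls. 13 of the 19 exposed rats lay above every control. The difference was 0.38 ± 0.07 (adjusted p = 0.0703), with 0.51 ± 0.10 in F and 0.25 ± 0.10 in R rats. *Kcnj11*, the pore of the ATP-sensitive potassium channel, spanned 7.48 to 7.97 with a median of 7.72 in exposed rats and 7.31 to 7.70 with a median of 7.43 in controls. 10 of the 19 exposed rats lay above the highest control, R control 2. The difference was 0.25 ± 0.05 (adjusted p = 0.0703), with 0.22 ± 0.07 in F and 0.27 ± 0.07 in R rats. When the set was a block *Kcnj11* passed, at 0.27 (adjusted p = 0.0338), and it was 0.31 within set B alone.

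*Adgrb2*, a brain adhesion G protein-coupled receptor, spanned 10.59 to 11.71 with a median of 11.02 in exposed rats and 10.10 to 11.05 with a median of 10.60 in controls. It differed by 0.44 ± 0.10 (adjusted p = 0.0786), with 0.63 in F and 0.26 in R rats, and 0.17 in R rats without R control 4. *Myo5a*, an actin motor that carries organelles into spines, spanned 9.17 to 10.13 with a median of 9.65 in exposed rats, against 8.31 to 9.57 with a median of 9.33 in controls. It differed by 0.43 ± 0.10 (0.14), with 0.33 in F and 0.54 in R rats. The R value rests on R control 2, the lowest rat at 8.31, and was 0.35 without it. Further higher genes were *Clptm1*, which holds GABA-A receptors in the endoplasmic reticulum (0.29 ± 0.06, adjusted p = 0.0786), *Ap3d1*, of the AP-3 coat (0.18 ± 0.04, 0.135), and *Ephb6*, an Eph receptor without kinase activity (0.28 ± 0.07, 0.135).

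Of 24 synaptic vesicle cycle genes, 18 were higher (median 0.051), with a median of −0.0014 in F and 0.097 in R rats. Of 52 potassium channel probes, 29 were higher and 23 lower (median 0.0058). Of 16 ionotropic glutamate receptor genes, 11 were higher (median 0.097), and *Grik2*, a kainate receptor subunit, had the smallest p at −0.20 ± 0.06 (adjusted p = 0.243).

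Among lower values, *Cxcl12* stood first by size of those with an adjusted p under 0.1. This chemokine, the ligand of Cxcr4, guides granule cell precursors in the dentate gyrus. It spanned 10.41 to 11.49 with a median of 11.13 in exposed rats, against 11.24 to 11.81 with a median of 11.49 in controls. 12 of the 19 exposed rats lay below every control, 7 of 10 F and 6 of 9 R rats below the controls of their own cohort. The difference was −0.43 ± 0.09 (adjusted p = 0.0786), with −0.41 ± 0.12 in F and −0.45 ± 0.13 in R rats. The difference between the cohorts was −0.039 (95% interval −0.40 to 0.32). Under the set block the exposure value was −0.41 (adjusted p = 0.0846), and within set B it was −0.43.

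Its receptors *Cxcr4* (−0.08 ± 0.05) and *Ackr3* (0.10 ± 0.08) had adjusted p of 0.725 and 0.822, and the *Cxcr4* probe was above background on 14 of 29 arrays. Of 8 chemokines and receptors above background, 7 were lower (median −0.062). Immune genes expressed in microglia were among the 15 leading lower genes as well. *Tlr2*, a receptor for bacterial lipoproteins, spanned 7.06 to 7.76 with a median of 7.50 in exposed rats and 7.55 to 7.97 with a median of 7.71 in controls, and 13 of the 19 exposed rats lay below every control. It differed by −0.23 ± 0.06 (adjusted p = 0.143), and *Laptm5*, a lysosomal membrane protein of blood-derived cells and microglia, by −0.19 ± 0.05 (0.135). The microglia list, with 7 of 11 lower and a median of −0.036, and 14 inflammatory genes, with 9 lower and a median of −0.020, were closer to the median over all probes.

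*Ovca2*, a serine hydrolase, spanned 8.81 to 10.02 with a median of 9.74 in exposed rats, against 9.84 to 10.32 with a median of 9.98 in controls. 14 of the 19 exposed rats lay below every control, and all 9 exposed R rats lay below every R control. The difference was −0.37 ± 0.08 (adjusted p = 0.0786), with −0.31 ± 0.10 in F and −0.41 ± 0.11 in R rats. R extreme 4 was the lowest rat, and without it the difference was −0.33 with a smaller adjusted p, 0.0409. *Slc41a1*, a magnesium transporter, differed by −0.24 ± 0.05 (0.0786), and *Stim1*, the calcium sensor of the endoplasmic reticulum, by −0.17 ± 0.04 (0.109). Both differed mainly in the extreme rats: against controls *Slc41a1* was −0.42 in extreme and −0.053 in minimal rats, and *Stim1* was −0.34 in extreme and 0.00064 in minimal rats. *Cldn10*, a claudin of tight junctions, differed by −0.25 ± 0.06 (0.132) and was lower in the minimal rats (−0.38) than in the extreme rats (−0.12), both against control.

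The other higher genes among the 30 were *Fkbp8*, an anti-apoptotic immunophilin of mitochondria (0.33 ± 0.07, adjusted p = 0.0786), *Actn4*, which crosslinks actin (0.31 ± 0.07, 0.111), *Mast2*, a microtubule-associated kinase (0.28 ± 0.07, 0.147), and *Spg7*, a mitochondrial protease (0.18 ± 0.04, 0.132). The other lower genes were *Wdr73* and *Lime1*, an adaptor of lymphocyte receptor signalling (−0.24 and −0.23, adjusted p = 0.0978 for each), *Sfxn4*, a mitochondrial sideroflexin (−0.17, 0.161), *Vrk1*, a nuclear kinase (−0.23, 0.166), *Hdac8*, a histone deacetylase (−0.24, 0.171), *Rev1*, a polymerase that copies damaged DNA (−0.15, 0.175), and *Plekhn1* (−0.15, 0.175). A second *Rev1* probe had −0.10 (0.749). The probes of *Slc41a1*, *Spg7* and *Plekhn1* were above background on 22, 21 and 14 of the 29 arrays, and those of the other 27 genes on all 29. Over 1347 values of the 30 genes under other settings and with each rat left out, 1347 kept their sign and 46 had an adjusted p under 0.05. The refits share most of their rats, and the genes were picked in this contrast. Kept signs were therefore likely from the start and are not replication.

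**Figure D2:**
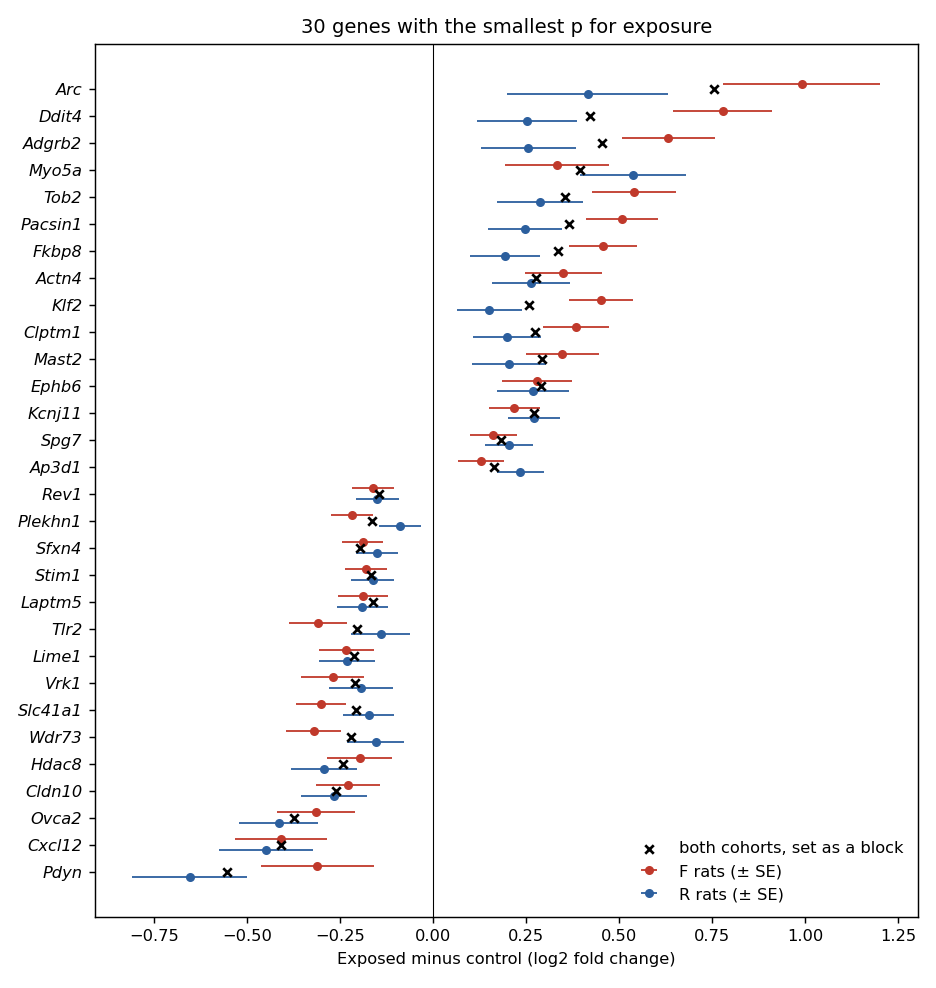
Exposed minus control log2 fold change of the 30 genes with the smallest p, 15 higher and 15 lower, with SE bars for F rats (red) and R rats (blue) and a cross for both cohorts with the set as a block. All 30 have the same sign in both cohorts, which follows in part from how they were picked; *Ddit4* is at 0.78 in F and 0.25 in R rats, and *Cxcl12* at −0.41 and −0.45.

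Across all probes the exposure differences of the cohorts were nearly unrelated. The F and R contrasts share no rat. Over 11888 probes their values had a Pearson correlation of 0.0374 and a Spearman correlation of −0.0335, and 48.3% of probes had the same sign. Genes are not independent replicates, and the correlation ranged between −0.0692 and 0.135 when single rats were left out. Exposure in R rats called 0 probes (percentage called 0), with 1010 (8.5%) at an unadjusted p under 0.05, and in F rats 1208 (10.2%) had one. In both cohorts at once, 72 probes (0.606%) had an unadjusted p under 0.05 in the same direction, 30 higher and 42 lower, and 54 had it in opposite directions. The 72 are 5.96% of the F probes and 7.13% of the R probes. They include *Eno1* (0.24) and *Aldoa* (0.19), both glycolytic enzymes, *Kdm6b*, a histone demethylase (0.23), *Tubb3*, neuronal tubulin (0.40), *Irf3*, an interferon regulatory factor (−0.19), and *Rgs10*, a regulator of G protein signalling (−0.33). Of all probes, 0 had every exposed rat above, and 0 every exposed rat below, every control of its cohort in both cohorts (percentage called 0 in each direction). Within F rats alone 16 probes (0.135%) had every exposed rat above every control and 9 (0.0757%) had every one below. Within R rats alone these numbers were 10 (0.0841%) and 12 (0.101%).

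**Figure D3:**
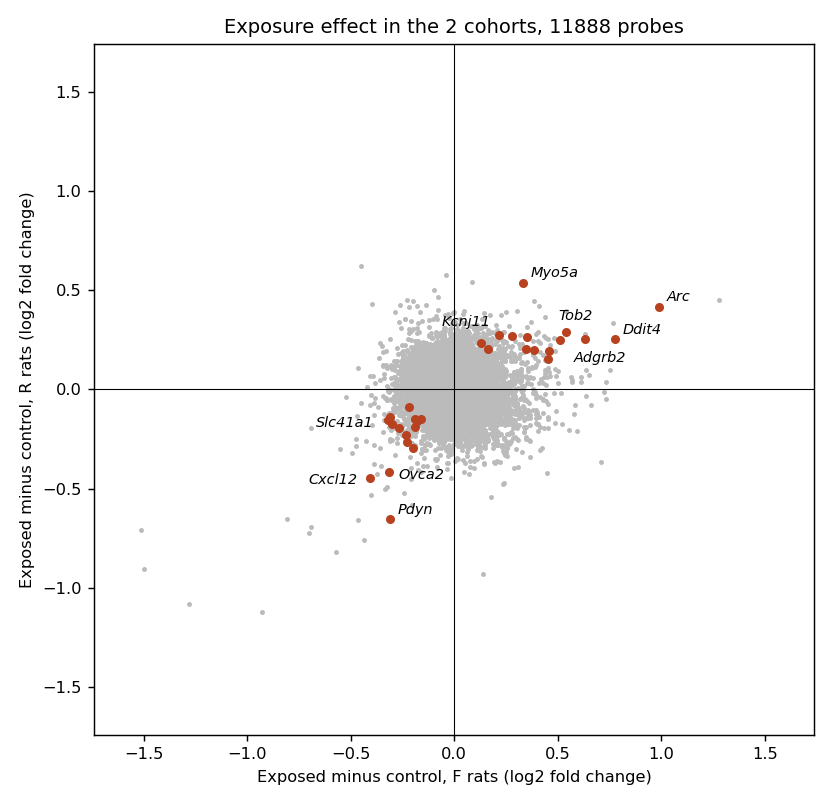
Exposed minus control log2 fold change in F rats (x axis) and in R rats (y axis) for 11888 probes in grey, with the 30 genes of smallest p in red-brown. The grey cloud has no slope that the eye can see (Pearson 0.0374), and the 30 genes lie in the corners where both cohorts have the same sign.

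The test of the difference itself called 0 of 11888 probes (percentage called 0; 1150 unadjusted, 9.67%; smallest adjusted p 0.165). Among genes with a larger value in F rats, the interval of R minus F was −1.19 to 0.044 for *Arc*, −0.74 to −0.010 for *Adgrb2*, −0.55 to −0.047 for *Klf2* and −0.54 to 0.021 for *Pacsin1*, each with an adjusted p above the threshold (0.563, 0.506, 0.443 and 0.568). For *Sst* it was −0.42 to 0.44 and for *Kcnj11* −0.15 to 0.26. Lists whose medians had opposite signs in the cohorts included oligodendrocyte markers (0.20 in F and −0.087 in R rats), oxidative phosphorylation (0.12 and −0.034) and cytoplasmic ribosomal proteins (0.030 and −0.14).

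Probes passed in the extreme rats and not in the minimal rats, and the difference between the responses was tested on its own. Extreme against control rats, 519 probes (4.37%) passed, 211 higher (1.77%) and 308 lower (2.59%). Minimal against control rats, 0 passed (percentage called 0), with 650 (5.47%) at an unadjusted p under 0.05 and a smallest adjusted p of 0.103. Both contrasts use the same 10 controls. With the set as a block the extreme count was 282 (2.37%) and the minimal count 0, and within set B the extreme count was 2. Extreme against minimal rats, which share no animal, 940 probes (7.91%) passed, 379 higher and 561 lower, and 227 (1.91%) with the set as a block.

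Of the 22 glucocorticoid-induced genes, 5 rose and 0 fell in extreme against control rats, against 1.77% of all probes that rose. Since the list was chosen with earlier results of these data known, that share is not a test of the list. They were *Tob2* (0.64 ± 0.10, adjusted p = 0.00111), *Ddit4* (0.62 ± 0.14, 0.01), *Sgk1* (0.59 ± 0.17, 0.0443), *Per1* (0.38 ± 0.10, 0.0208) and *Klf15*, a metabolic transcription factor (0.20 ± 0.06, 0.0457). In minimal against control rats the same contrast gave 0.18 for *Tob2*, 0.40 for *Ddit4*, 0.29 for *Sgk1* and 0.20 for *Per1*. These contrasts pool the cohorts, and the extreme F rats lay above every F control for these 4 genes. The extreme R rats overlapped the R controls: 11.54 to 11.99 against 11.11 to 12.43 for *Sgk1*, and 10.11 to 10.53 against 9.70 to 10.59 for *Ddit4*. For *Per1* they were at 8.85 to 9.50 against 8.96 to 9.11, and for *Tob2* at 9.08 to 9.88 against 8.94 to 9.32. With the set as a block *Tob2* (0.0183) and *Per1* (0.0363) stayed past the threshold, and *Ddit4* (0.129), *Sgk1* (0.0947) and *Klf15* (0.0561) did not. *Dusp1* (0.0335) and *Nfkbia*, an inhibitor of NF-kappa-B (0.0366), passed under the block alone, which makes 4 of 22. The mean log2 level of the 22 genes was 9.18 to 9.88 in extreme, 9.45 to 9.61 in minimal and 9.28 to 9.56 in control rats.

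Of the 25 immediate early genes, 4 rose and 1 fell in extreme against control rats, against 1.77% of all probes that rose and 2.59% that fell. The same limit holds for the choice of this list. *Arc* (0.78 ± 0.18, adjusted p = 0.0144), *Fos* (0.57 ± 0.15, 0.0277), *Klf2* (0.45 ± 0.08, 0.00275) and *Sik1*, a salt-inducible kinase (0.37 ± 0.11, 0.0495), rose, and *Jun* (−0.29 ± 0.08, 0.035) fell. For *Sik1* the extreme F rats were at 8.62 to 9.22 (F controls 7.98 to 8.27) and the extreme R rats at 7.99 to 8.57 (R controls 8.07 to 8.45). In minimal against control rats *Arc* was close to its extreme value (0.62 ± 0.19), while *Fos* was at 0.12 ± 0.15. With the set as a block the calls of *Arc* (0.0252), *Klf2* (0.0373) and *Fos* (0.0374) held and those of *Sik1* (0.1) and *Jun* (0.111) ended, while *Egr4* passed under the block alone (0.44, 0.0482). *Sst* rose (0.48 ± 0.12, 0.0277, and 0.0443 with the block) and *Pdyn* fell (−0.48 ± 0.13, 0.0333, and 0.0209 with the block).

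Against controls, extreme rats also showed *Pacsin1* (0.45 ± 0.08, adjusted p = 0.00313), *Kcnj11* (0.34 ± 0.06, 0.00111) and *Adgrb2* (0.65 ± 0.11, 0.00165) higher and *Cxcl12* (−0.54 ± 0.11, 0.00419), *Stim1* (−0.34 ± 0.04, 0.000203) and *Slc41a1* (−0.42 ± 0.06, 0.00032) lower. All 6 passed with the set as a block. Extreme and minimal rats themselves differed for *Stim1* (−0.34, adjusted p = 0.000134), *Slc41a1* (−0.36, 0.00085), *Tob2* (0.45, 0.00885), *Adgrb2* (0.42, 0.0221), *Klf2* (0.30, 0.0253) and *Kcnj11* (0.19, 0.0396). Under the set block *Stim1* (0.00371), *Slc41a1* (0.0298) and *Kcnj11* (0.0455) passed, and *Tob2* (0.158), *Adgrb2* (0.0834) and *Klf2* (0.281) did not. They were not shown to differ for *Pacsin1* (0.14, 0.346), *Ddit4* (0.22, 0.365), *Cxcl12* (−0.21, 0.235), *Arc* (0.16, 0.649), *Sst* (0.11, 0.639) or *Pdyn* (0.0022, 0.996).

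Among basic cell functions, cytoplasmic ribosomal proteins were mostly lower and oxidative phosphorylation mostly higher in exposed rats with the cohorts pooled. Their medians were small, and in each list the cohort medians had opposite signs. The ribosomal median was 0.030 in F and −0.14 in R rats, with 21 probes lower and 4 higher in both cohorts. A further 32 were higher in F and lower in R rats, and 4 the reverse. The median of oxidative phosphorylation was 0.12 in F and −0.034 in R rats. Of its probes 15 were higher and 8 lower in both cohorts, 31 were higher in F and lower in R rats, and 5 the reverse. Of 61 cytoplasmic ribosomal protein probes, 43 were lower (median −0.054). That median was −0.033 under the set block, −0.025 within set B and 0.00080 within set A. In extreme against control rats 9 of the 61 fell, against 2.59% of all probes, and 5 passed under the set block. *Rpl5* (−0.35, adjusted p = 0.00315, and 0.0459 under the block) and *Rplp0* (−0.29, 0.00313, and 0.0439) passed in both fits. The 3 ribosomal genes that define the sets, *Rpl37l1*, *Rpl7* and *Rpl23*, are among the 9 and did not pass under the block (0.967, 0.419 and 0.77). The 2 probes of *Rps9*, another ribosomal gene, differed by −1.12 ± 0.60 and −0.70 ± 0.37 with adjusted p of 0.643 and 0.634. Its level was far above that of the others in 6 rats, 2 of 19 exposed and 4 of 10 controls. Oxidative phosphorylation had 43 of 59 higher (median 0.041), proteasome subunits 24 of 40 lower (median −0.013), and heat shock and unfolded protein response genes 12 of 21 lower (median −0.026). Solute carriers had 90 of 178 higher (median 0.0090).

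Markers of other cell types and neighbouring tissue were measured beside these. Pyramidal cell markers had a median of −0.0043 (5 of 12 higher), astrocyte markers −0.0026 (5 of 10), oligodendrocyte markers 0.055 (11 of 15) and endothelial and pericyte markers 0.014 (8 of 11). Striatum markers had a median of 0.0084 (5 of 9 higher), thalamus markers 0.073 (4 of 6) and neocortex markers 0.065 (4 of 4). Among 4 blood cell genes 3 were lower (median −0.14), and *Hbb*, beta globin, was at −0.25 ± 0.11 (adjusted p = 0.505). The mean log2 level of the thalamus list spanned 7.87 to 9.27 in extreme, 7.68 to 9.15 in minimal and 7.75 to 9.06 in control rats. The part of tissue makeup in the exposure values was not tested.

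**Figure D4:**
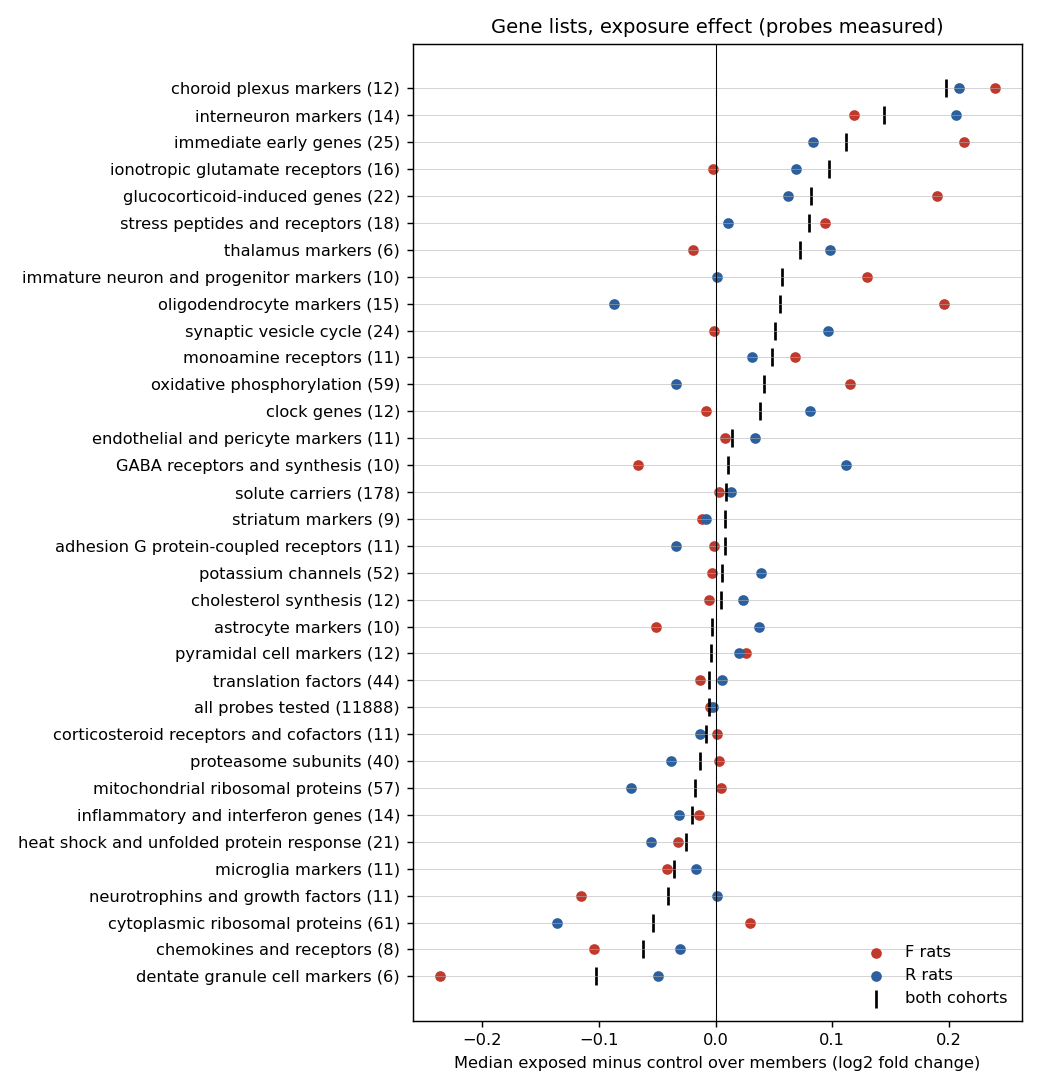
Median exposed minus control log2 fold change over the members of each gene list with at least 6 probes, for F rats (red), R rats (blue) and both cohorts (black bar), with the number of probes in brackets. Choroid plexus (0.20), interneuron (0.14) and immediate early genes (0.11) lie furthest above the median of all probes (−0.0054), and, of the lists drawn, dentate granule cell markers (−0.10) furthest below. The granule cell median includes probes close to background, which have little room to fall.

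The number of probes that passed for exposure differed between models. Fitting the 6 group means in place of response plus cohort gave 13 probes (0.109%), with *Ddit4*, *Pacsin1*, *Kcnj11*, *Adgrb2*, *Tob2*, *Fkbp8* and *Klf2* higher and *Cxcl12*, *Ovca2* and *Slc41a1* lower. The fold change of *Pacsin1* was 0.38 in both fits, and its adjusted p was 0.0328 in that one. Under the set block the named genes that passed were *Kcnj11* (0.27), *Strap*, a protein associated with receptor kinases (−0.19), and *Zbtb18*, a repressor of transcription in neurons (−0.43). *Strap* and *Zbtb18* were at −0.10 and −0.16 without the block.

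**Figure D5:**
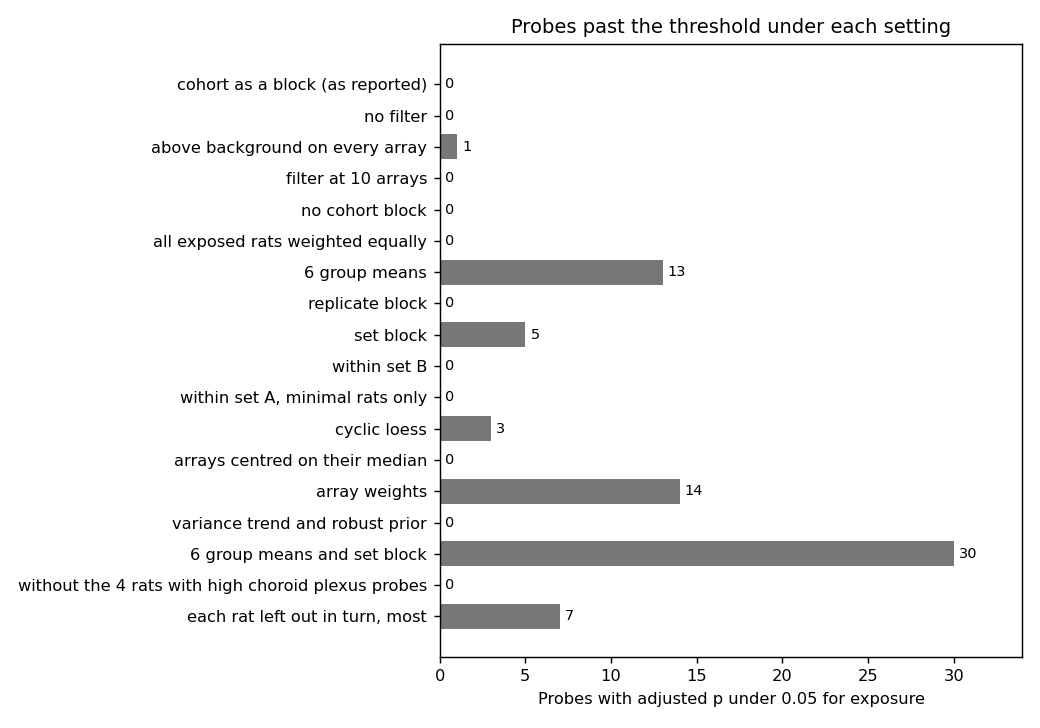
Number of probes with an adjusted p under 0.05 for exposure under each setting, with the largest count over single rats left out in the last bar. The reported fit called 0 probes, the fit of 6 group means 13, and the fit of 6 group means with the set as a block 30.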

How the data were processed

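Hippocampal RNA of 30 rats had been hybridised to Illumina rat arrays, 1 rat per array. The deposited log2 values were normalised between arrays by the authors: the sorted values of all columns differ by at most 0.00119 at any rank, as after quantile normalisation. The log base was inferred from the range of 6.31 to 15, and the sources used here do not name the normalisation software. A further table of 60 columns, whose names match no label, was not used. Gene symbols came from the platform annotation.

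Background was taken as the mode of all values, 6.7, and probes above 7.03 (3 SDs of 0.109 over it) on at least 5 arrays were kept, 11888 of 22523 (52.8%), of which 8545 have a symbol. Each array had 10332 probes above that limit, since the arrays share 1 distribution. The number of arrays limits the precision.

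Differences were fitted with limma 3.58.1 in R 4.3.3 on response group plus cohort (25 residual degrees of freedom), two-sided, with Benjamini-Hochberg adjustment over all kept probes and a threshold of 0.05. Values per cohort and their difference came from a fit of 6 group means. Figures and promoter windows used Python 3.11.15. The code was tested on simulated data. Genes named are the 15 per direction with the smallest p for exposure, up to 6 members per gene list, and a fixed group of stress genes. *Dusp1*, *Klf15*, *Eno1*, *Aldoa*, *Kdm6b*, *Rgs10*, *Strap*, *Zbtb18* and *Rps9* were named after their values were seen. The members and the 36 lists were chosen with earlier results of these data known, and the sets and the choroid plexus rats were found in the values. Alternatives covered the filter, the blocks, the normalisation, array weights, the variance prior and each rat left out.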

Additional observations from a re-analysis of the deposited data

Results flagged for a closer look

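In 9 of 120 checks of single values within groups of 4 or 5 rats, 1 rat stood apart from the rest of its group, and chance gives about 1 in 20. Of the 9, 1 is the correlation of an array and not the value of a gene, so the share is approximate. *Adgrb2* was at 11.12 in F minimal 5, with the other F minimal rats at 10.59 to 10.63. *Arc* was at 9.362 in F extreme 4, below the other F extreme rats at 9.718 to 9.86. *Slc41a1* was at 7.114 in F extreme 1, with the others of that group at 6.753 to 6.818. *Wdr73* was at 9.569 in F control 5, with the others at 9.889 to 9.984. In R control 3, *Pdyn* was at 7.905 (others 8.494 to 8.684) and *Cldn10* at 11.08 (others 10.78 to 10.87). *Tlr2* was at 7.965 in F control 3 (others 7.665 to 7.708) and at 7.551 in R control 5 (others 7.713 to 7.775). The median correlation of R extreme 4 with the other arrays was 0.9643, with the other R extreme rats at 0.9845 to 0.9863.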

How the results depend on the processing

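No result changed direction among those with a test. Exposure called 0 probes by limma as reported, 1 with the stricter filter, 13 with 6 group means, 5 with the set as a block, 3 after cyclic loess, 14 with array weights and 30 with 6 group means and the set. The last, and leaving out the 4 choroid plexus rats, were chosen after seeing the data. The extreme versus control comparison gave 282 with the set as a block, 2 within set B, 912 with array weights and 337 with 6 group means and the set. The extreme versus minimal comparison gave 227, 6 and 244 under the set block, within set B and 6 group means with the set, and 499 without the 4 choroid plexus rats. F rats gave 6 with the stricter filter, 26 with the set block, 0 within set B, 9 after cyclic loess, 11 with array weights and 6 with a variance trend and robust prior. R rats gave 2 within set A and 2 with array weights. The correlation of the cohorts was 0.156 with array weights. List medians that moved by more than the spread between rats of a group (1 SD) were those of glucocorticoid-induced genes within set B (0.202), solute carriers (−0.0146) and cholesterol synthesis (−0.11) within set A, and granule cell markers under the stricter filter (−0.479). The last rests on *C1ql2*, *Pdyn* and *Calb1* alone and is the *C1ql2* value. Others moved by less than that spread, some across 0, such as choroid plexus markers within set B (−0.376). The causes were not tested.

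With single rats left out, calls ranged between 0 and 7 for exposure, 0 and 2 for minimal against control, 263 and 636 for extreme against control, 599 and 1104 for extreme against minimal, 0 and 21 in F rats, 0 and 3 in R rats, and 0 and 1 for the difference between cohorts. The correlation ranged between −0.0692 and 0.135. When the replicate number was a block, calls were 0 for exposure, 1 for minimal against control, 0 in F rats and 2 in R rats. The numbers do not pair the rats: deviations of 70 same-numbered pairs correlated at −0.435 to 0.495 (median −0.0144), and 1 of 29 rats correlated best with its own number.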
